A study of Mus musculus with 35 samples.

Results

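The comparison described here is the effect of the PGC-1α knockout in old skeletal muscle. It sets 6 gastrocnemius libraries of male mice aged 24 months, labelled PGC-1α knockout (mKO), against 6 libraries of male wild-type (WT) mice of the same age, 12 of the 35 libraries in the series. The other libraries came from male WT (n = 6) and mKO (n = 5) mice aged 3 months and from PGC-1α transgenic (mTG) mice of both ages (n = 6 each). All were bulk RNA-seq of whole gastrocnemius, the large calf muscle, made from total RNA with a TruSeq kit. The labels give no strain, no part of the gene that was deleted, and neither the Cre nor the transgene promoter. The deposited table has column names of its own, and these were matched to the groups by genotype prefix, SO being read as 24 months, since it stands in the names of 6 of the 11 MKO columns and the labels count 6 mKO mice of 24 and 5 of 3 months. The groups therefore rest on that reading of the names, and mKO below means libraries so labelled.

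PGC-1α, the product of Ppargc1a, is a transcriptional coactivator that binds nuclear receptors and other factors and raises the transcription of genes for mitochondrial respiration. Among its best known partners are the estrogen-related receptors, of which ERRα is encoded by Esrra, and the nuclear respiratory factors. In skeletal muscle it is induced by exercise, and it is known for promoting oxidative metabolism, capillary growth and features of slow, fatigue-resistant fibres. The markers listed for the tissue were checked first. The 10 skeletal muscle fibre genes summed to 95150 to 109800 scaled TPM in WT and 101100 to 112500 in mKO. The 8 markers of other organs summed to 0.406 to 20.8 (median 0.762) in WT and 1.63 to 6.17 (median 3.37) in mKO. Of these the heart myosin gene Myh6 had means of 2.93 in WT and 3.33 in mKO, the liver genes Alb 1.32 and 0.331 and Apoa1 0.402 and 0.0426, and Nppa, Umod, Slc12a1, Gfap and Syt1 up to 0.0267.

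The libraries differed in more than genotype. Nuclear ribosomal RNA (rRNA) genes took 9.59%, 11.3%, 12.6%, 5.34%, 12.3% and 10.5% of TPM in the 6 WT libraries of 24 months and 10.4%, 7.31%, 2.53%, 4.20%, 5.16% and 1.85% in the 6 mKO libraries. A window of 5% to 11%, set after the shares were seen, held 3 WT (5.34%, 9.59% and 10.5%) and 3 mKO libraries (5.16%, 7.31% and 10.4%). They are called the libraries of overlapping rRNA share below. Strictly, the WT library at 10.5% lay above all mKO shares and the mKO library at 5.16% below all WT shares. The share differed by -1.15 on the log2 scale (exact 2-sided permutation test over 924 splits, p = 0.0216, Benjamini-Hochberg adjusted p over 3 single values = 0.0325), and this call was lost when any 1 of 8 of the 12 libraries was left out, with adjusted p up to 0.0714. TPM add to a fixed total in each library, and the median tested gene was 0.28 higher in mKO on the log2 scale before any scaling. Values are given as scaled TPM, with each library brought to a common median ratio of its genes, which put the median gene at -0.01. Counts on unscaled TPM, and in the 3 WT and 3 mKO libraries with overlapping rRNA shares, are given for most of the lists below. They are read against those of all tested genes under the same treatment. The scaled changes also followed transcript length weakly across 10876 nuclear protein-coding genes (Spearman rho 0.165, a description across genes), and removing that trend kept 90.5% of the genes called higher and 91.2% of those called lower.

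One 3-month library bears on the comparison of ages. MKO_3251, labelled mKO, lay with WT for most of the genes that separated the genotypes in the other libraries. Esrra was at 40.4 scaled TPM in it, 17.7 to 21.5 in the other 4 mKO libraries of 3 months and 33.6 to 47.4 in the 6 WT libraries of that age. It was nearer its own label in 28.3% of 554 genes, against 49.3% to 70.6% in the other mKO libraries of 3 months. For this reason the comparison of ages was also made without it, and a call that this changes is named. Each of the 12 libraries of 24 months was nearer its own label in at least 70% of 263 genes.

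A gene was tested where it had at least 1 TPM in at least 5 libraries, and changes are differences of mean log2(scaled TPM + 1), mKO minus WT at 24 months, ± SE from limma. Of 12399 tested genes, 1292 were called higher in mKO (10.4%) and 1517 lower (12.2%) at a Benjamini-Hochberg adjusted p under 0.05. On unscaled TPM the counts were 6359 higher (51.3%) and 343 lower (2.77%). Among the genes called on scaled TPM, 1292 were also called higher and 340 also called lower on unscaled TPM. A change of at least 1.5-fold was met by 193 of the higher and 361 of the lower genes. In the 3 WT and 3 mKO libraries with overlapping rRNA shares, 355 were called higher (2.86%) and 362 lower (2.92%), and 1292 and 1516 of the genes first called kept their direction there. All 6 mKO libraries lay above all 6 WT libraries for 867 genes (6.99%) and below them for 1047 (8.44%).

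Ppargc1a itself (ENSMUSG00000029167, GRCm38 chromosome 5, 51454250 to 51567726, minus strand) was higher in the libraries labelled mKO. Its level was 4.33, 4.69, 4.68, 3.79, 4.02 and 3.79 scaled TPM in the 6 WT libraries and 6.28, 7.63, 7.42, 9.95, 10.6 and 7.18 in the 6 mKO libraries. No mKO library overlapped WT, and the difference was 0.80 on the log2 scale (exact 2-sided permutation test, p = 0.00216, the smallest that 924 splits allow, adjusted p = 0.00649). By limma the rise was called (adjusted p = 0.00244), but not in the libraries of overlapping rRNA share (0.86, adjusted p = 0.0802). Gene-level values sum all exons, and the labels do not say which part was deleted, so this level checks nothing about a partial deletion. At 3 months it held 4.83 to 15.2 scaled TPM in WT and 4.45 to 10.5 in mKO, which overlapped, and the effects at the 2 ages differed by 0.90 ± 0.28 (limma, adjusted p = 0.0559), or 0.76 ± 0.27 (limma, adjusted p = 0.0933) without MKO_3251. Ppargc1b was not called. This gene, which encodes the related coactivator PGC-1β, had 1.42 to 2.73 (median 1.98) scaled TPM in WT and 1.6 to 2.62 (median 2.05) in mKO, a difference of 0.05 ± 0.11 (limma, adjusted p = 0.768), and its sign turned when WSO_13 was left out.

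Esrra, the gene of the ERRα receptor through which PGC-1α acts, was the partner gene with the largest fall. It held 38, 46.7, 39, 41, 42.4 and 43.9 scaled TPM in the 6 WT libraries and 22.1, 21.4, 20.9, 19.9, 23.9 and 22.8 in the 6 mKO libraries. Every mKO library was below every WT library, and Esrra fell by 0.91 ± 0.11 (limma, adjusted p = 7.66e-07). Of the 28 coactivators, receptors and partner factors in the list fixed for this family, 3 rose and 2 fell, with a median change of 0.04. Among all tested genes 10.4% rose and 12.2% fell. On unscaled TPM 19 were called higher and 1 lower, where 51.3% of all tested genes were called higher. Mef2d, a muscle transcription factor that PGC-1α coactivates, rose by 0.61 ± 0.19 (limma, adjusted p = 0.0205), and Yy1, a factor linked to mitochondrial gene transcription, rose by 0.40 ± 0.14 (limma, adjusted p = 0.0444). Both calls were lost with the rRNA share as a covariate (limma, adjusted p = 0.0984 and 0.148) and in the libraries of overlapping rRNA share (0.262 and 0.439), where 1 and 0 members of the list rose. Nrip1, which encodes the corepressor RIP140, fell by 0.49 ± 0.15 (limma, adjusted p = 0.0163). It was still called with the rRNA share as a covariate (limma, adjusted p = 0.0117). Its call was lost in the libraries of overlapping rRNA share (limma, adjusted p = 0.429) and on unscaled TPM (limma, adjusted p = 0.201). Tfam, the main packaging and transcription factor of mitochondrial DNA, had 17.7 to 25.1 (median 21.3) scaled TPM in WT and 16.1 to 23.4 (median 21.7) in mKO, a difference of -0.02 ± 0.09 (limma, adjusted p = 0.874) whose sign depended on the setting.

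**Figure D1:**
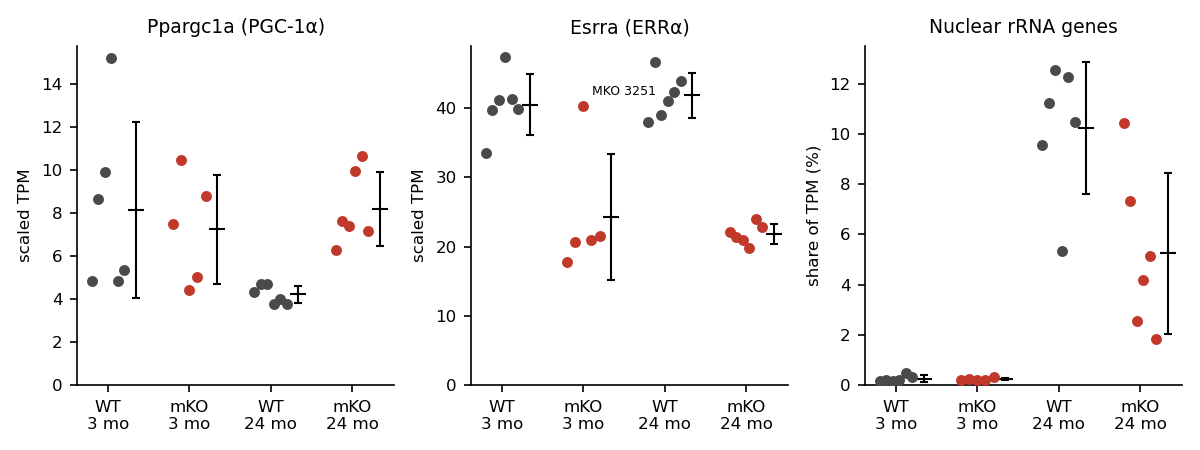
Levels by library of Ppargc1a and Esrra in scaled TPM and of nuclear rRNA genes in percent of TPM, in WT (dark grey) and mKO (red) at 3 and 24 months, where points are libraries and bars the mean ± SD. At 24 months all mKO libraries lie above WT for Ppargc1a and below WT for Esrra, the rRNA shares overlap, and the 3-month library MKO_3251 lies with WT for Esrra.

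The genes of the respiratory chain fell almost as a whole. These nuclear genes encode subunits of complexes I to IV, which pass electrons to oxygen, and of complex V, the ATP synthase. The mobile carrier cytochrome c (Cycs) is counted with complex IV, and the ATP synthase inhibitor Atpif1 with complex V. Of 81 tested, 76 fell and 0 rose, with a median change of -0.65 and a range of -0.22 to -1.61, where 12.2% of all tested genes fell and their median was -0.01. All 6 mKO libraries lay below all 6 WT libraries for 76 of them, where 8.44% of all tested genes were so ordered. All 81 were below 0. On unscaled TPM 42 of the 81 fell and 0 rose, with a median of -0.27, and in the libraries with overlapping rRNA shares 39 fell, with a median of -0.68. In bulk tissue, fewer fibres rich in mitochondria and less of these RNAs in each fibre cannot be told apart.

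The promoters of these genes were searched for the letters of the sites that PGC-1α's partners bind, because ERRα, NRF-1 and GABP are the factors through which it is known to act on them. The window was 250 bases before to 50 after the RefSeq start (GRCm38.p6), on both strands, and 63 of the 76 genes that fell had a promoter in the table. A gene with several promoters was counted once, if any of them matched. The ERR letters TNAAGGTCA were found in 3 of the 63 (4.76%), against 0.864% of the 8917 tested genes with a promoter and 1.43% of all 27025 genes with a promoter. Among all genes called lower they were in 1.09% and among all called higher in 1.65%. The NRF-1 letters GCGCATGCG were found in 8 (12.7%), against 4.32% and 1.95%, and in 4.19% of the genes called lower and 3.83% of those called higher. The GABP letters CCGGAAG, the shortest of the 3, were found in 15 (23.8%), against 20.8% and 9.93%, and in 18.7% and 18.3% of those called lower and higher. These matches are descriptions of letters and not of bound sites. The 4 promoters below show them in genes whose values follow, written 5′ to 3′ on the strand of the gene with the matches in capitals, and all 7 matches lie on the opposite strand, so that the letters appear as their reverse complement. The first belongs to Atp5g3 (chr2:73911277-73911576, minus strand, 1 ERR match) and the second to Sdhd (chr9:50603800-50604099, minus strand, 1 ERR and 1 GABP match). The third belongs to Cycs, the gene of cytochrome c (chr6:50566520-50566819, minus strand, 1 NRF-1 match), and the last to Atp5l (chr9:44920693-44920992, minus strand, 1 NRF-1 and 2 GABP matches).
Atp5g3: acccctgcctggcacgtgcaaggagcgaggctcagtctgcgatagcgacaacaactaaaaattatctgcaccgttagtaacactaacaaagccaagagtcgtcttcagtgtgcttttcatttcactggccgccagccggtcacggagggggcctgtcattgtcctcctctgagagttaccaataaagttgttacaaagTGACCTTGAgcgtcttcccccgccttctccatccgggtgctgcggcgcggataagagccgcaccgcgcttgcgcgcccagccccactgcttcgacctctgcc
Sdhd: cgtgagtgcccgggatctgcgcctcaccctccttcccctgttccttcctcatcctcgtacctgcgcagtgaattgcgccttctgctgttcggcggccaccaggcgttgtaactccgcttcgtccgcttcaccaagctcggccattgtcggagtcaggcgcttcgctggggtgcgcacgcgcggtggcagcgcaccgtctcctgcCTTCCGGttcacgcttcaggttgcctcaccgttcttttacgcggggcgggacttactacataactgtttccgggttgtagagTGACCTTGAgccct
Cycs: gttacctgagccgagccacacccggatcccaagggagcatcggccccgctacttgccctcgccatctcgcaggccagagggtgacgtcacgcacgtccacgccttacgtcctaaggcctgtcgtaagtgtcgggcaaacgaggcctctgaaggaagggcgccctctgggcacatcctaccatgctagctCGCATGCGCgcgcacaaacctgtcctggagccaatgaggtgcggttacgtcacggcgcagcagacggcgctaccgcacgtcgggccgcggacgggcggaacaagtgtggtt
Atp5l: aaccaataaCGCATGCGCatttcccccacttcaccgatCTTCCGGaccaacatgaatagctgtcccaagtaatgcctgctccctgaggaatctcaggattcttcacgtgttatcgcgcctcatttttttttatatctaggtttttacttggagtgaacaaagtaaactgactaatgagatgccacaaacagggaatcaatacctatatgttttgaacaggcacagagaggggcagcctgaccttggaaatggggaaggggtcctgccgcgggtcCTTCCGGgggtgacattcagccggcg

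Complex I, the NADH dehydrogenase, had 38 tested genes, of which 35 fell and 0 rose (median -0.59), while 18 fell on unscaled TPM and 17 in the libraries of overlapping rRNA share. Ndufc2, an accessory subunit, held 126, 148, 150.5, 151, 157 and 148 scaled TPM in the 6 WT libraries and 78.5, 79, 82.3, 74.4, 74 and 77.2 in the 6 mKO libraries. The groups stood well apart, and Ndufc2 fell by 0.91 ± 0.10 (limma, adjusted p = 1.74e-07). Ndufb11, a membrane-arm subunit encoded on the X chromosome, had 248 to 294 (median 273) scaled TPM in WT and 135 to 160.1 (median 138) in mKO and fell by 0.94 ± 0.11. Ndufb5, another membrane-arm subunit, fell by 0.81 ± 0.12. Ndufa4, a small subunit first assigned to complex I and later found with complex IV, fell by 0.96 ± 0.14, from a median of 1042 to 544 scaled TPM. The 3 members that were not called were lower as well: -0.46 ± 0.19 for Ndufa2, -0.33 ± 0.13 for Ndufa10 and -0.41 ± 0.17 for Ndufb7.

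Complex II, succinate dehydrogenase, is encoded by 4 nuclear genes, and all 4 fell. They did so by unequal amounts. Sdhb, the iron-sulfur subunit, had 300.5 to 379 (median 327) scaled TPM in WT and 174 to 198 (median 189.5) in mKO without overlap and fell by 0.82 ± 0.10 (limma, adjusted p = 7.01e-07). Sdhd, a membrane anchor whose promoter is printed above, fell by 0.58 ± 0.07, from a median of 152 to 100.4 scaled TPM. The flavoprotein gene Sdha fell by 0.24 ± 0.07 and the other anchor gene, Sdhc, by 0.30 ± 0.07, and the libraries of both overlapped between the groups. On unscaled TPM Sdha and Sdhc turned to 0.14 and 0.07, neither of them called.

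Complex III, which passes electrons to cytochrome c, had 9 tested genes, and all 9 fell (median -0.68), while 6 fell on unscaled TPM and 7 in the libraries of overlapping rRNA share. Uqcrfs1, the Rieske iron-sulfur protein, had 198 to 239 (median 206) scaled TPM in WT and 116 to 133 (median 124) in mKO and fell by 0.75 ± 0.09 (limma, adjusted p = 6.83e-07). Cyc1, cytochrome c1, fell by 0.68 ± 0.10, the small subunit gene Uqcr10 by 0.77 ± 0.13 and the core subunit gene Uqcrc2 by 0.45 ± 0.07.

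Complex IV, cytochrome c oxidase, had the largest median fall among the 5 complexes (-0.74), with all 14 of 14 genes lower, Cycs included, 8 lower on unscaled TPM and 7 in the libraries of overlapping rRNA share. Cox7a1, the subunit isoform of heart and skeletal muscle (ENSMUSG00000074218, GRCm38 chromosome 7, 30184144 to 30186078, plus strand), fell most among them. It held 579.8, 662, 665, 714, 699 and 836 scaled TPM in the 6 WT libraries and 262, 229, 202, 201, 224 and 242 in the 6 mKO libraries. The highest mKO library was far below the lowest WT library, and the fall was 1.61 ± 0.19 (limma, adjusted p = 3.06e-07), with -1.56 in the libraries of overlapping rRNA share. Cycs, the gene of the cytochrome c that carries electrons to this complex and whose promoter is printed above, held 125, 157, 182, 184, 176 and 180.2 scaled TPM in the 6 WT libraries and 82.6, 71.4, 79.5, 91, 83.4 and 98 in the 6 mKO libraries. These did not overlap, and Cycs fell by 0.98 ± 0.18 (limma, adjusted p = 0.000147). Cox6c, Cox7c and Cox8a, genes of small structural subunits, fell by 0.91 ± 0.14, 0.78 ± 0.11 and 0.75 ± 0.11.

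In complex V, 14 of 16 genes fell and 0 rose (median -0.66), while 8 fell on unscaled TPM and 6 in the libraries of overlapping rRNA share. Atp5l, subunit g of the membrane part, held 898, 1056, 1130, 1174, 1144 and 1255 scaled TPM in the 6 WT libraries and 636, 511, 513, 467, 466 and 457 in the 6 mKO libraries. No library crossed over, and it fell by 1.13 ± 0.16 (limma, adjusted p = 3.82e-06). Atp5c1, the gamma subunit of the central stalk, fell by 0.74 ± 0.09. Of the genes for the c subunit, which all encode the same mature protein of the rotor ring, Atp5g1 fell by 0.88 ± 0.16 and Atp5g3 by 0.69 ± 0.11. The third, Atp5g2, had 31.5 to 123 (median 78) scaled TPM in WT and 7.9 to 93.6 (median 19.8) in mKO and was not called (-1.54 ± 0.58, limma, adjusted p = 0.0524), its libraries spreading widely within each group. The alpha subunit gene Atp5a1 was the other member not called, at -0.22 ± 0.09.

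**Figure D2:**
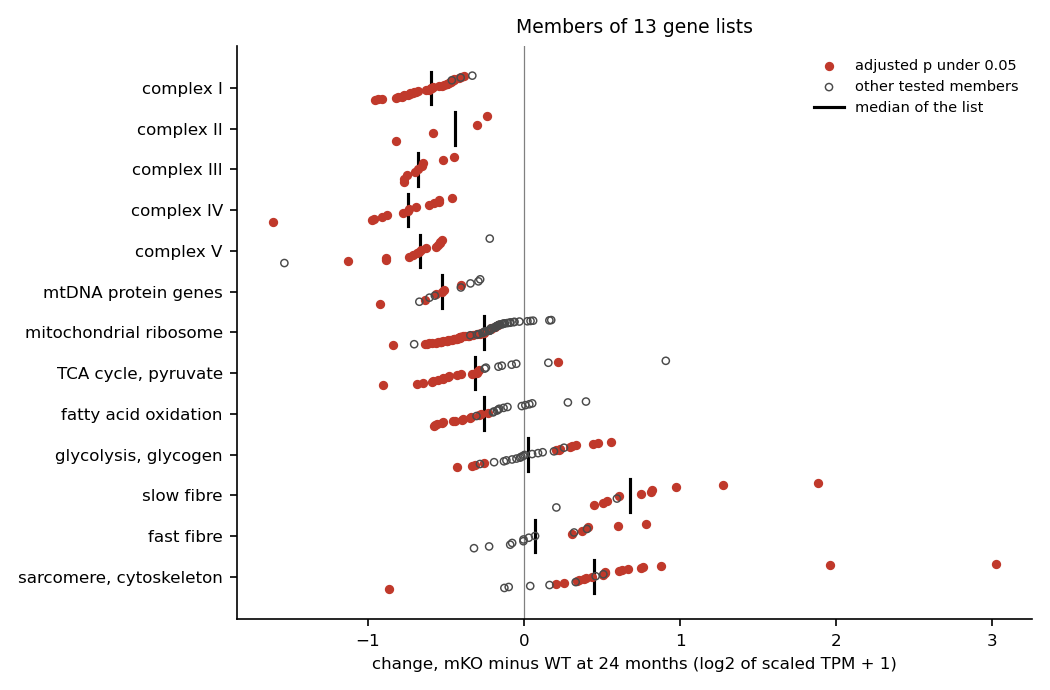
Change of each tested member of 13 gene lists, mKO minus WT at 24 months, in log2 of scaled TPM + 1. Filled points passed an adjusted p of 0.05, open points did not, and the vertical bar is the median of the list. The 5 respiratory complexes lie left of 0, the mitochondrial ribosome is less displaced, and the slow fibre and sarcomere lists lie mostly right of 0.

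Mitochondrial DNA encodes 13 further subunits of complexes I, III, IV and V. On scaled TPM 6 of the 13 fell and 0 rose (median -0.52), and on unscaled TPM 2 fell (median -0.15), and 3 in the libraries of overlapping rRNA share. mt-Nd6, a complex I subunit and the only protein gene on the light strand, had 292 to 429 (median 332) scaled TPM in WT and 140.2 to 227 (median 176) in mKO and fell by 0.92 ± 0.12 (limma, adjusted p = 2.17e-06). mt-Co3 of complex IV fell by 0.63 ± 0.11, mt-Nd1 of complex I by 0.52 ± 0.12 and mt-Atp6 of complex V by 0.57 ± 0.15, the last with overlapping libraries. Together the 13 genes took 22.4% ± 1.88 of TPM in WT and 20.3% ± 1.66 in mKO (SD, n = 6 each). That difference of -2.10 points did not pass the threshold (exact 2-sided permutation test, p = 0.0736, adjusted p = 0.0736). Taken as a share of the TPM left without rRNA it was 26.0% ± 1.67 in WT and 21.8% ± 1.06 in mKO, a difference of -4.20 points (exact permutation test, adjusted p = 0.00325). Nuclear copies of mitochondrial genes can share reads with these 13 genes, and how such reads were assigned is not given in the sources used here.

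The series is about mitochondrial translation, and the genes of its machinery changed in part. The mitochondrial ribosome, built from nuclear-encoded proteins, had 83 tested genes, of which 42 fell and 0 rose (median -0.26). On unscaled TPM 19 were called higher and 2 lower (median 0.11), where 51.3% of all tested genes were called higher and their median was 0.28, and in the libraries of overlapping rRNA share 6 fell (median -0.26). Mrpl12, a large-subunit protein also known to bind the mitochondrial RNA polymerase, held 80.5, 88, 73.2, 90.8, 87.8 and 90.3 scaled TPM in the 6 WT libraries and 47.4, 43.2, 47.9, 51.6, 45.6 and 46.3 in the 6 mKO libraries. It stood apart in every library, fell by 0.84 ± 0.12 (limma, adjusted p = 5.79e-06) and fell on unscaled TPM too (-0.47). Among other large-subunit genes Mrpl42 fell by 0.64 ± 0.10, Mrpl20 by 0.55 ± 0.10 and Mrpl15 by 0.54 ± 0.09. Of 38 translation factors and tRNA enzymes, 3 fell and 1 rose, with a median of -0.07, where 12.2% of all tested genes fell and 10.4% rose. On unscaled TPM 22 were called higher and 1 lower. Taco1, the translational activator of mt-Co1, fell by 0.25 ± 0.08, the alanyl-tRNA synthetase gene Aars2 fell by 0.19 ± 0.06, and the isoleucyl-tRNA synthetase gene Iars2 rose by 0.12 ± 0.05. None of these 3 passed with the rRNA share as a covariate in limma. Lars2, the leucyl-tRNA synthetase gene, fell by 1.40 ± 0.33, but its locus is known to hold rRNA-like sequence and it had 2029 to 4365 (median 3752) scaled TPM in WT and 536 to 3241 (median 1355) in mKO, so its value is uncertain. It was at -0.34 with the rRNA share as a covariate (limma, adjusted p = 0.116) and at -0.45 in the libraries of overlapping rRNA share (limma, adjusted p = 0.576), no longer called.

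Pathways that feed electrons to the chain held genes that fell and genes that were not called. In the tricarboxylic acid (TCA) cycle and pyruvate dehydrogenase, 17 of 26 genes fell and 1 rose (median -0.32). Unscaled TPM gave 4 higher and 3 lower, where 51.3% of all tested genes were called higher and 2.77% lower. The libraries of overlapping rRNA share gave 0 and 11, where 2.86% and 2.92% of all tested genes were called. Pdhb, a subunit of the E1 enzyme of pyruvate dehydrogenase, had 159.8 to 173 (median 163) scaled TPM in WT and 101 to 108 (median 105) in mKO, without overlap, and fell by 0.65 ± 0.08 (limma, adjusted p = 2.52e-07). Its partner subunit gene Pdha1 fell by 0.58 ± 0.09, and Mpc1, a subunit of the carrier that brings pyruvate into mitochondria, by 0.69 ± 0.08. Mdh1, the cytosolic malate dehydrogenase, fell by 0.59 ± 0.10. The 1 member that rose was Pdk1, a kinase that inhibits pyruvate dehydrogenase, at 0.22 ± 0.07.

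Of 28 genes of fatty acid uptake and oxidation, 14 fell and 0 rose (median -0.25). On unscaled TPM 8 were called higher and 0 lower, where 51.3% of all tested genes were called higher and 2.77% lower. In the libraries of overlapping rRNA share the counts were 0 and 2, where 2.86% and 2.92% of all tested genes were called. Echs1, the enoyl-CoA hydratase of β-oxidation, fell by 0.52 ± 0.09, Etfa, a subunit of the flavoprotein that takes up its electrons, by 0.46 ± 0.08, Acot13, a thioesterase, by 0.58 ± 0.12 and Crat, carnitine acetyltransferase, by 0.29 ± 0.06. In the list of branched-chain amino acid and ketone use 10 of 24 fell and 0 rose. Unscaled TPM gave 4 higher and 2 lower there and the libraries of overlapping rRNA share 0 and 4, to be read against the same shares of all tested genes. Got2, the mitochondrial aspartate aminotransferase, had 91.5 to 124 (median 111) scaled TPM in WT and 60 to 66.2 (median 63.5) in mKO and fell by 0.79 ± 0.11 (limma, adjusted p = 5.34e-06). Its cytosolic counterpart Got1 fell by 0.65 ± 0.13, Hibadh, an enzyme of valine breakdown, by 0.47 ± 0.06 and Acat1, which acts on ketone bodies and isoleucine, by 0.46 ± 0.09.

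Of 30 genes of mitochondrial import, dynamics and cristae, 14 fell and 0 rose. Unscaled TPM gave 9 higher and 1 lower, where 51.3% of all tested genes were called higher and 2.77% lower. The libraries of overlapping rRNA share gave 0 and 6, where 2.86% and 2.92% of all tested genes were called. The import channel gene Timm17a fell by 0.51 ± 0.07, the cristae organizing genes Apoo and Immt by 0.57 ± 0.08 and 0.43 ± 0.07, and the inner membrane scaffold gene Phb by 0.53 ± 0.09. The mitochondrial stress response list, which holds chaperones and stress-induced factors, had 2 falls and 0 rises among 17 genes, where 12.2% of all tested genes fell. Both falls were in the matrix chaperonin: Hspe1 by 0.45 ± 0.12 and Hspd1 by 0.16 ± 0.06, the latter being called higher on unscaled TPM (0.21).

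Of 25 antioxidant enzymes 9 fell and 2 rose, where 12.2% of all tested genes fell and 10.4% rose. Unscaled TPM gave 9 higher and 1 lower, where 51.3% of all tested genes were called higher and 2.77% lower. The libraries of overlapping rRNA share gave 1 and 2. Sod2, the superoxide dismutase of the mitochondrial matrix, had 108 to 138 (median 124) scaled TPM in WT and 69.5 to 77.5 (median 73.3) in mKO and fell by 0.75 ± 0.10 (limma, adjusted p = 9.3e-07). The peroxiredoxin genes Prdx5 and Prdx3 fell by 0.62 ± 0.13 and 0.37 ± 0.06. Nqo1, a cytosolic quinone reductase, rose by 0.57 ± 0.09, from a median of 14.4 to 21.4 scaled TPM, without overlap.

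Creatine and secreted factor genes held some of the larger changes. Ckmt2, the mitochondrial creatine kinase that transfers phosphate from new ATP to creatine (chromosome 13, 91853387 to 91876885, minus strand), held 627, 677, 619, 619.9, 561 and 761 scaled TPM in the 6 WT libraries and 256, 278, 259.8, 262, 272 and 299 in the 6 mKO libraries. No mKO library reached WT, and Ckmt2 fell by 1.24 ± 0.14 (limma, adjusted p = 1.4e-07). Gamt, the last enzyme of creatine synthesis, had 7.79 to 8.92 (median 8.5) scaled TPM in WT and 18.3 to 23.4 (median 21.3) in mKO and rose by 1.23 ± 0.19. Slc6a8, the creatine transporter gene, rose by 0.47 ± 0.07. In that list of creatine, polyamine and myokine genes 3 of 16 rose and 6 fell (unscaled TPM gave 7 and 2). Fndc5, the precursor gene of irisin and a known PGC-1α target, fell by 0.99 ± 0.15, from a median of 25.4 to 12.8 scaled TPM. In the list of angiogenic factors Vegfb fell by 0.67 ± 0.11 and Angpt1 rose by 0.28 ± 0.09, and the other 11 tested members were not called.

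Glycolysis and glycogen genes went both ways. Of 28 tested, 9 rose and 4 fell (median 0.03), and on unscaled TPM 20 rose and 0 fell, and in the libraries of overlapping rRNA share 2 and 0. Hk2, the hexokinase that traps glucose in the fibre, had 45.5 to 70.4 (median 53.7) scaled TPM in WT and 72.3 to 89.8 (median 82.2) in mKO and rose by 0.56 ± 0.13 (limma, adjusted p = 0.00150). Gbe1, the glycogen branching enzyme, rose by 0.44 ± 0.08, Phka1, a regulatory subunit of glycogen phosphorylase kinase, by 0.33 ± 0.08 and Pkm, pyruvate kinase, by 0.31 ± 0.07.

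Genes of the contractile apparatus were mostly higher in mKO. Of 12 slow fibre genes 10 rose and 0 fell (median 0.68). With the rRNA share as a covariate 2 were called, and in the libraries of overlapping rRNA share 1, with medians of 0.52 and 0.63, and on unscaled TPM all 12 were called higher. Myh7, the slow myosin heavy chain, held 36.7, 47.5, 34.9, 108, 37.4 and 33.6 scaled TPM in the 6 WT libraries and 124, 222, 187, 176, 133 and 191 in the 6 mKO libraries. WSO_27 stood apart within WT yet stayed below all mKO libraries, and Myh7 rose by 1.88 ± 0.30 (limma, adjusted p = 3.23e-05). Atp2a2, the calcium pump of slow fibres, had 33.7 to 47.4 (median 42.8) scaled TPM in WT and 80.9 to 127 (median 109) in mKO and rose by 1.28 ± 0.25. Tnnt1, slow troponin T, rose by 0.97 ± 0.23. Casq2, the calsequestrin of slow fibres and heart, rose by 0.51 ± 0.12 with overlapping libraries.

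Of 15 fast fibre genes 5 rose and 0 fell, with a median of 0.07. Myh4, the fastest myosin heavy chain and the most abundant one in these libraries, held 4764, 4713, 4363, 4310, 4945 and 4977 scaled TPM in the 6 WT libraries and 7123, 7568, 6756, 6377, 7416 and 7421 in the 6 mKO libraries. The groups did not overlap, and Myh4 rose by 0.60 ± 0.08 (limma, adjusted p = 8.99e-07). Myh2, the myosin of fast oxidative fibres, rose by 0.78 ± 0.16, Mybpc2, fast myosin-binding protein C, by 0.41 ± 0.09 and Atp2a1, the calcium pump of fast fibres, by 0.37 ± 0.11.

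In calcium handling 5 of 25 genes rose and 1 fell, where 10.4% of all tested genes rose and 12.2% fell. The fall was S100a1, a calcium sensor that binds the ryanodine receptor, with 144 to 207 (median 152) scaled TPM in WT and 64.6 to 76.2 (median 69) in mKO. It fell by 1.23 ± 0.16 (limma, adjusted p = 7.32e-07). Pln, the inhibitor of the Atp2a2 pump, rose by 0.88 ± 0.23, Ryr1, the calcium release channel, by 0.35 ± 0.10 and Camk2b, a calcium-dependent kinase, by 0.31 ± 0.08. On unscaled TPM 21 of the list were called higher and 1 lower, where 51.3% of all tested genes were called higher. In the libraries of overlapping rRNA share the counts were 0 and 1. There Pln, Ryr1 and Camk2b were not called (limma, adjusted p = 0.355, 0.0616 and 0.131). Pln was not called with the rRNA share as a covariate either (limma, adjusted p = 0.120).

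Sarcomere and cytoskeleton genes rose in 18 of 26 cases and fell in 1 (median 0.45, 22 rises and 1 fall on unscaled TPM, and 7 rises and 1 fall in the libraries of overlapping rRNA share). Igfn1, an immunoglobulin and fibronectin domain protein of the Z disc (chromosome 1, 135953578 to 136006342, minus strand), held 4.23, 4.24, 3.42, 5.27, 1.87 and 3.41 scaled TPM in the 6 WT libraries and 35, 29.1, 44.2, 36.7, 48.4 and 29.3 in the 6 mKO libraries. The lowest mKO library was several times the highest WT library, and Igfn1 rose by 3.02 ± 0.26 (limma, adjusted p = 1.75e-09). Myom2, an M-band protein, rose by 0.66 ± 0.06, Flnc, the muscle filamin, by 0.75 ± 0.09 and skeletal α-actin, Acta1, by 0.39 ± 0.11. The 1 member that fell was Dmd, the dystrophin gene, with 16.8 to 19.8 (median 18.8) scaled TPM in WT and 9.31 to 10.3 (median 9.73) in mKO and a fall of 0.87 ± 0.16 (limma, adjusted p = 0.000108).

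**Figure D3:**
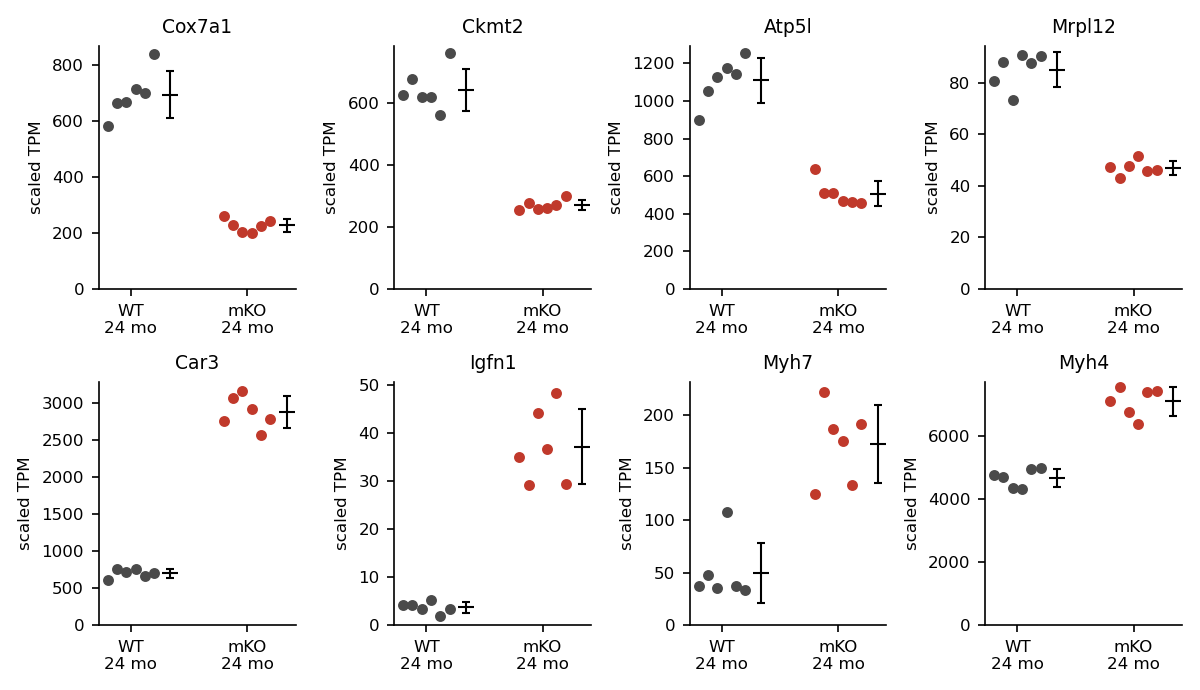
Scaled TPM of 8 genes in each of the 6 WT (dark grey) and 6 mKO (red) libraries of 24 months, with the mean ± SD as a bar. Cox7a1, Ckmt2, Atp5l and Mrpl12 are lower in every mKO library and Car3, Igfn1, Myh7 and Myh4 higher, with 1 WT library at 108 scaled TPM for Myh7.

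Genes that respond to loss of the nerve or that sit at the synapse changed in part. Of 17 denervation response genes 4 rose and 0 fell (median 0.33, but 0.01 in the libraries of overlapping rRNA share, where 1 rose). Chrna1, the alpha subunit of the acetylcholine receptor, had 2.54 to 4.95 (median 3.88) scaled TPM in WT and 5.0 to 8.7 (median 7.89) in mKO and rose by 0.80 ± 0.14 (limma, adjusted p = 0.000125), and the beta subunit gene Chrnb1 rose by 0.51 ± 0.08. Myh3 and Myh8, the embryonic and perinatal myosins, rose by 0.75 ± 0.14 and 0.47 ± 0.05 at low levels, the latter having 0.85 to 1.26 (median 1.06) scaled TPM in WT and 1.6 to 2.11 (median 1.88) in mKO. At the neuromuscular junction 5 of 15 genes rose and 1 fell, and in the libraries of overlapping rRNA share 0 and 0. Ache, acetylcholinesterase, rose by 0.34 ± 0.10, and Dok7, the activator of the MuSK receptor, fell by 0.57 ± 0.15.

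Of 24 genes of atrophy and proteolysis 6 rose and 0 fell (median 0.11, and 2 rises in the libraries of overlapping rRNA share). Sqstm1, the autophagy receptor p62, had 257 to 333 (median 279.6) scaled TPM in WT and 378 to 445 (median 422) in mKO and rose by 0.56 ± 0.07 (limma, adjusted p = 1.54e-06). Fbxo32, the ubiquitin ligase atrogin-1, rose by 0.54 ± 0.10, and the transcription factor genes Foxo3 and Tfeb, which drive proteolysis and lysosome genes, rose by 0.31 ± 0.08 and 0.35 ± 0.12. On unscaled TPM 12 fast fibre, 12 denervation, 10 neuromuscular junction and 20 atrophy and proteolysis genes were called higher, where 51.3% of all tested genes were.

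Several of the largest changes lay outside these pathways. Car3, a carbonic anhydrase abundant in muscle and fat (chromosome 3, 14863512 to 14872523, plus strand), held 603, 757, 712, 758, 658 and 708 scaled TPM in the 6 WT libraries and 2761, 3074, 3164, 2914, 2566 and 2781 in the 6 mKO libraries. Every mKO library was far above WT, and Car3 rose by 2.04 ± 0.15 (limma, adjusted p = 6.45e-11). Actc1, the actin of the heart and of embryonic muscle, had 19.6 to 75 (median 39.9) scaled TPM in WT and 95 to 204 (median 160.5) in mKO and rose by 1.96 ± 0.33. Lrtm1, a leucine-rich membrane protein, rose by 1.77 ± 0.17, Plin3, a lipid droplet coat protein, by 1.62 ± 0.18 and Sytl2, a vesicle trafficking protein, by 1.48 ± 0.15. Pla2g5, a secreted phospholipase, rose by 1.44 ± 0.28, and Cyfip2, a regulator of actin branching, by 1.35 ± 0.16. Il12a, a cytokine subunit gene, rose by 1.28 ± 0.13, with 5.37 to 6.79 (median 6.0) scaled TPM in mKO. Dync1h1, the heavy chain of the dynein motor, rose by 1.15 ± 0.12, Ift122, a ciliary transport protein, by 1.07 ± 0.13 and the clock gene Per1 by 1.08 ± 0.27.

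Among the largest falls were Pon3, an antioxidant esterase, with 12.9 to 15.5 (median 14.7) scaled TPM in WT and 4.9 to 6.67 (median 5.56) in mKO and a fall of 1.22 ± 0.12 (limma, adjusted p = 8e-09). Aspa, the enzyme that releases acetate from N-acetylaspartate, fell by 1.21 ± 0.13, Glrx, glutaredoxin, by 1.1 ± 0.12 and Fuom, a fucose mutarotase, by 1.09 ± 0.16, each without overlap. Slc30a2, a zinc transporter, fell by 1.24 ± 0.13, Slc15a5, a member of the peptide transporter family, by 1.35 ± 0.18 and Htra4, a secreted serine protease, by 1.42 ± 0.20. Myl12b, a nonmuscle myosin light chain, fell by 1.31 ± 0.35, but with 15.1 to 28.5 (median 22.7) scaled TPM in WT and 0.95 to 15 (median 11.7) in mKO its groups nearly touched, and it was not called with the rRNA share as a covariate. Cfd and Cyp2e1, genes of adipocytes and liver, fell by 1.59 ± 0.38 and 1.51 ± 0.35 and spread widely: Cfd had 12 to 58.5 (median 22.2) scaled TPM in WT and 3.79 to 11 (median 7.48) in mKO. Ifi27l2a, an interferon-induced gene, fell by 1.18 ± 0.25.

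Some markers of other cell types in the muscle fell too. Of the 14 tested macrophage and myeloid markers 5 fell and 0 rose, and the sum of the list was 79.3 to 128 scaled TPM in WT and 51.7 to 72.1 in mKO, without overlap. Tyrobp, a signalling adaptor of myeloid cells, fell by 0.71 ± 0.13 and the complement gene C1qa by 0.63 ± 0.15. The defining markers Adgre1 and Itgam were low in both groups, with means of 0.95 and 0.445 scaled TPM in WT and 0.7 and 0.35 in mKO. For fibro-adipogenic progenitors 8 of 12 fell and 0 rose, and the summed level was 342 to 406 in WT and 274 to 325 in mKO. Ly6a, the surface antigen Sca-1, fell by 0.51 ± 0.11 and the stromal gene Cd248 by 0.33 ± 0.08. Endothelial markers fell in 3 of 16 cases, where 12.2% of all tested genes fell. Among them Emcn, an endothelial surface mucin, was at -0.60 ± 0.11 and the receptor gene Tek at -0.31 ± 0.08. The summed endothelial levels were 195 to 249.6 in WT and 171 to 199.5 in mKO. On unscaled TPM these 3 lists gave 0, 1 and 4 members higher and 1, 0 and 1 lower. In the libraries of overlapping rRNA share limma called 0, 0 and 1 lower and none higher, and with the rRNA share as a covariate 2, 3 and 2. Tyrobp was at -0.57 in those libraries (limma, adjusted p = 0.0585) and Ly6a at -0.54 (limma, adjusted p = 0.0632).

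Tendon markers gave 5 falls and 1 rise among 7 tested, the same counts on unscaled TPM and with the rRNA covariate, but 2 falls and 0 rises in the libraries of overlapping rRNA share. Their summed levels were 35.9 to 50.8 scaled TPM in WT and 23.9 to 37.5 in mKO. Tnmd, tenomodulin, fell by 0.99 ± 0.19, the small proteoglycan genes Kera and Fmod by 0.84 ± 0.14 and 1.01 ± 0.25, and Scx, the transcription factor that defines tendon cells, rose by 0.67 ± 0.15. Hemoglobin and other red cell genes fell in 5 of 5 cases on scaled TPM, 1 on unscaled TPM and 1 in the libraries of overlapping rRNA share, with Hbb-bt at -0.86 ± 0.18 and sums of 457 to 985 in WT and 294 to 376 in mKO. Of 10 adipocyte markers 5 fell, the lipid carrier gene Fabp4 by 0.52 ± 0.12, and 1 rose, which was Car3 and made up most of the list's sum of 892 to 1067 scaled TPM in WT and 2761 to 3350 in mKO. On unscaled TPM 2 of the list were called lower and 1 higher, and in the libraries of overlapping rRNA share 0 and 1. Of the adipocyte markers Ucp1 was at 0 in all 12 libraries. Antigen presentation and interferon genes fell in 10 of 20 cases (unscaled 2 lower and 2 higher, and 2 lower with overlapping rRNA shares), with the immunoproteasome gene Psmb8 at -0.95 ± 0.19 and B2m, the light chain of class I molecules, at -0.45 ± 0.10. Of 3 tested T and B cell markers and 6 Schwann and nerve markers none was called by limma, and 0 and 0 had an unadjusted p under 0.05. Their summed ranges overlapped between the groups. Of 29 extracellular matrix genes 4 rose and 2 fell, of 9 myogenic and satellite cell genes 1 rose and 1 fell, of 10 smooth muscle and pericyte markers 1 fell, and of 13 chemokines and cytokines 3 fell. Among all tested genes 10.4% rose and 12.2% fell. The part that different numbers of these cells, or tendon and fat kept with the muscle, may have in the changes above was not tested.

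The same contrast at 3 months shows which effects were already present in young muscle. At 3 months 222 genes were called higher in mKO (1.79%) and 406 lower (3.27%), and without MKO_3251 the counts were 462 (3.73%) and 690 (5.56%). The effect at 24 months was higher than that at 3 months for 307 genes (2.48%) and lower for 234 (1.89%) by limma's test of the difference. Without MKO_3251 it was higher for 305 (2.46%) and lower for 223 (1.80%), and 252 and 192 genes were called both ways. In the 24-month libraries of overlapping rRNA share 12 and 4 genes differed between the ages. The rRNA share was 0.155% to 0.479% in the 6 WT and 0.195% to 0.307% in the 5 mKO libraries of 3 months, so that rRNA share and age cannot be told apart in this test.

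Without MKO_3251, the nuclear respiratory chain genes lay lower at 24 than at 3 months in 77 of 81 cases, with medians of -0.65 and -0.23. With MKO_3251, 79 of 81 lay lower, the 3-month median then being -0.19. Neither count was made without MKO_3259, a 3-month mKO library nearer its own label in 49.3% of 554 genes. Mitochondrial DNA protein genes took 15.2% of TPM in it and 21.2% to 27.6% in the other mKO libraries of 3 months. What this library does to the 3-month medians was not tested. The test of the difference passed for 6 genes of complex I, 2 of complex IV and 2 of complex V, all lower at 24 months, and for 4, 1 and 1 without MKO_3251. For complexes II and III limma called no gene with that library or without it, and 2 and 7 genes had an unadjusted p under 0.05, all lower at 24 months, where 1444 of the 12399 tested genes (11.6%) were lower and 1402 higher at that p. Atp5l held 552, 580.1, 543, 692, 565 and 575 scaled TPM in the 6 WT libraries of 3 months and 416, 428, 924 and 390.3 in the 4 mKO libraries left without MKO_3251, so that 1 of the 4, MKO_3259, was high. Its effect differed between ages by -0.99 ± 0.23 (limma, adjusted p = 0.0128), or -0.92 ± 0.23 (limma, adjusted p = 0.0246) without MKO_3251. For Ndufc2 the difference was -0.63 ± 0.15 with that library and -0.56 ± 0.15 without it, and for Ndufb11 -0.64 ± 0.16 and -0.57 ± 0.16, all called. Ndufb5 (-0.60 ± 0.17) and Atp5c1 (-0.42 ± 0.12) were called with MKO_3251 and missed the threshold without it. Cox6b1, a complex IV subunit, gave -1.47 ± 0.43 and -1.55 ± 0.45, both called, with overlapping libraries at 24 months, and Cycs gave -0.93 ± 0.26 (limma, adjusted p = 0.0348) and, without MKO_3251, -0.89 ± 0.27 (limma, adjusted p = 0.0527), no longer called. Cox7a1 was lower at 3 months too (-1.02 without MKO_3251), and the difference between ages was not called (-0.59 ± 0.26, limma, adjusted p = 0.169).

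In the TCA cycle list 11 of 26 genes lay lower at 24 months and 15 higher without MKO_3251, with medians of -0.32 at 24 and -0.40 at 3 months. With that library 13 lay lower and 13 higher, and the 3-month median was -0.32. Got1 had a weaker effect in old muscle, -1.14 at 3 months without MKO_3251 and -0.65 at 24 months (difference 0.49 ± 0.13, limma, adjusted p = 0.0307), a difference not called with that library (0.29 ± 0.18, limma, adjusted p = 0.34). The rise of Pla2g5 was likewise smaller at 24 months (1.44) than at 3 months without MKO_3251 (2.42), with a difference of -0.98 ± 0.24 (limma, adjusted p = 0.0203), against -0.47 ± 0.41 (limma, adjusted p = 0.512) with MKO_3251. Esrra, with -0.97 at 3 months without MKO_3251 and -0.91 at 24 months, Ckmt2 with -1.12 and -1.24, and Fndc5 with -1.09 and -0.99, were not called by the test between ages. Their differences were 0.06 ± 0.11, -0.12 ± 0.17 and 0.10 ± 0.19 (limma, adjusted p = 0.787, 0.715 and 0.784).

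Of the sarcomere genes 20 of 26 lay higher at 24 than at 3 months without MKO_3251, with medians of 0.45 and 0.09, and 22 with it, the 3-month median then being 0.07. Myom2 differed by 0.50 ± 0.09 (limma, adjusted p = 0.00188), Flnc by 0.76 ± 0.14 and Igfn1 by 1.64 ± 0.38, and without MKO_3251 by 0.48 ± 0.09, 0.76 ± 0.14 and 1.33 ± 0.33, all called. Among myosins Myh2 differed by 1.1 ± 0.24 (limma, adjusted p = 0.00761) and Myh4 by 0.55 ± 0.11 (limma, adjusted p = 0.00614), or 1.161 ± 0.24 and 0.57 ± 0.12 without MKO_3251, both called. At 3 months, without MKO_3251, their effects were -0.38 and 0.04. Dynlt1b, a dynein light chain with a near-identical neighbour gene, had the smallest adjusted p of the genes named for this test. Its level was 20.1 to 29 scaled TPM in WT and 45.5 to 61.2 in the 5 mKO libraries of 3 months, MKO_3251 included, but 38 to 52.9 (median 43.8) in WT and 32.6 to 44.2 (median 36.6) in mKO at 24 months, a difference of -1.28 ± 0.14 (limma, adjusted p = 7.19e-07), or -1.34 ± 0.14 without MKO_3251, and its value is uncertain where copies share reads. Kmt2d, a histone methyltransferase, and Asb15, a muscle ubiquitin ligase adaptor, differed by 1.22 ± 0.28 and 1.31 ± 0.29, and Selenom, a selenoprotein, by -1.29 ± 0.27. Without MKO_3251 these were 1.32 ± 0.29, 1.37 ± 0.30 and -1.30 ± 0.28, all called. Fbxo32 was called only without MKO_3251 (0.54 ± 0.14, limma, adjusted p = 0.0303, against 0.46 ± 0.15, limma, adjusted p = 0.0662). The markers of other cells differed too: Tyrobp by -0.72 ± 0.18 and the tendon gene Kera by -1.04 ± 0.21, or -0.74 ± 0.19 and -1.02 ± 0.22 without MKO_3251 (limma, adjusted p = 0.0263 and 0.00997), with effects of 0.03 and 0.18 at 3 months without MKO_3251.

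**Figure D4:**
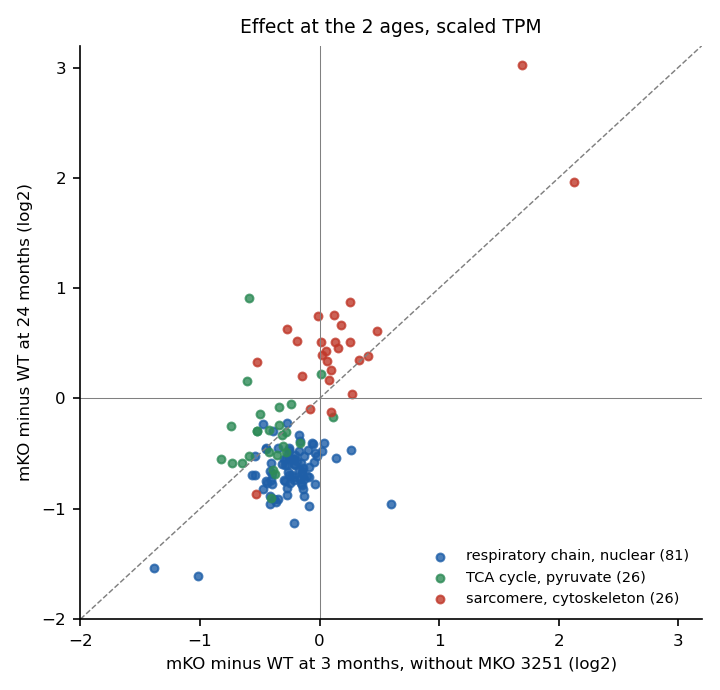
Effect of the knockout at 24 months against that at 3 months, without MKO_3251, in log2 of scaled TPM + 1, for 81 respiratory chain, 26 TCA cycle and 26 sarcomere genes, where the dashed line marks equal effects. Respiratory chain points lie mostly below the line (77 of 81) and sarcomere points mostly above it (20 of 26).

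The transgenic libraries of 24 months, with nuclear rRNA shares of 0.384% to 1.33%, were compared with the same 6 WT libraries, so the 2 comparisons share their controls and are set side by side only. In mTG minus WT, Ppargc1a was 4.11 against 0.80 in mKO minus WT, and Esrra 1.27 against -0.91. Cox7a1 was 1.07 against -1.61, Ckmt2 2.01 against -1.24, Got2 1.89 against -0.79 and Vegfb 1.94 against -0.67. Car3 was -1.08 against 2.04, Gamt -1.86 against 1.23 and Igfn1 -1.11 against 3.02. Of the genes set side by side, Esrra, Cox7a1, Ckmt2, Got2, Vegfb, Car3, Gamt and Igfn1 had opposite signs. Myh4 was 0.56 against 0.60, Dync1h1 1.06 against 1.15 and Htra4 -2.22 against -1.42, and these had the same sign in both, as had Ppargc1a.

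Without scaling, the median of all tested genes moved from -0.01 to 0.28, and the medians of the lists moved up with it. The lists are therefore read against that median. On unscaled TPM the mitochondrial ribosome lay at 0.11, the TCA cycle at 0.05 and fatty acid oxidation at 0.11, below the median of all tested genes on either scale, while the slow fibre list lay at 1.05 and the sarcomere list at 0.82, above it on either scale. With the rRNA share as a covariate, or in the libraries of overlapping rRNA share, the medians of the complexes changed little: complex IV was at -0.75 and -0.80 and complex I at -0.58 and -0.63.

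**Figure D5:**
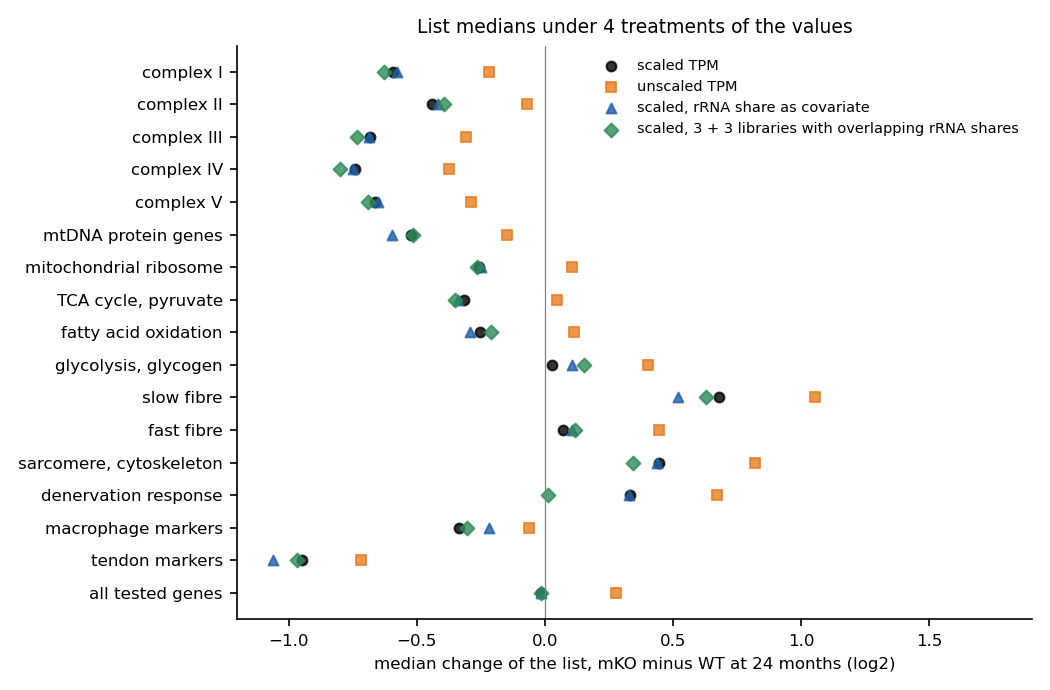
Median change of 16 gene lists and of all tested genes, mKO minus WT at 24 months in log2, under 4 treatments of the values: scaled TPM, unscaled TPM, scaled TPM with the rRNA share as a covariate, and scaled TPM in 3 WT and 3 mKO libraries with overlapping rRNA shares. Unscaled medians lie to the right of the scaled ones, as does that of all tested genes, from -0.01 to 0.28.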

How the data were processed

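RNA-seq was made from gastrocnemius of 35 male mice, labelled as biological replicates. The authors deposited 1 table of TPM per gene (54416 gene IDs, of which 253 had no annotation). The submitters' processing notes name cutadapt 1.16, Salmon 1.1.0, edgeR and GRCm38, with no role or order, and depth is not kept in TPM. Columns were matched to groups by name prefix.

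Each library was divided by its median ratio to the geometric means (size factors 0.96 to 1.436 in the 12 libraries compared, 0.641 to 1.498 over all 35). The 12399 genes that reached 1 TPM in 5 or more libraries entered limma 3.58.1 (R 4.3.3) as log2(scaled TPM + 1), with all 35 libraries in the fit, a mean for each of the 6 groups, an intensity trend and Benjamini-Hochberg adjustment over all of them, and the fit was tested on simulated data. Fold changes on this scale understate those of low genes. Single values had exact 2-sided permutation tests over 924 splits.

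The members and lists were chosen with earlier results of these data known. Genes named are Ppargc1a and called partner factors, the 15 largest rises and falls without overlap at 5 or more scaled TPM, up to 4 called genes per list, and the 6 largest differences between ages in each direction, some of which are not reported here. Ppargc1b, Tfam, Ndufa2, Ndufa10, Ndufb7, Atp5a1, Atp5g2, Pdk1, Dmd, Adgre1, Itgam and Cycs were added after their values were seen, and so were the alternatives without MKO_3251 and with rRNA shares of 5% to 11%. Other alternatives were the scaling, pseudocount (0.1), filters, weights, covariate, transcript length and leaving out libraries. How reads shared by gene copies were assigned is not given in the sources used here.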

Additional observations from a re-analysis of the deposited data

Results flagged for a closer look

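In 21 of 298 sets of 6 libraries (149 genes, 2 groups of 24 months) 1 library lay far from the other 5, its gap to the nearest being larger than Dixon's critical value for 6 samples allows. Chance marks about 1 set in 20. In scaled TPM, the highest WT library stood apart for Uqcrfs1 at 239.4 against 211.9, mt-Atp6 at 15000 against 10180, Mrpl42 at 394.5 against 277.5, Phb at 84.63 against 76.26, Myh7 at 107.8 against 47.5, Tnnt1 at 207.2 against 136.2, Scx at 5.373 against 4.569 and Hbb-bt at 81.55 against 44.51 in the next library. The lowest WT library stood apart for Ndufc2 at 126.4 against 147.5, Mrpl15 at 85.81 against 96.16, Iars2 at 7.832 against 9.32, Pkm at 961.8 against 1099, Atp2a2 at 33.67 against 42.6 and Ryr1 at 99.13 against 127.8. The highest mKO library stood apart for Nrip1 at 2.632 against 1.919, Ndufb11 at 160.1 against 142.9, Atp5l at 636 against 513.2, Mrpl42 at 192 against 181.5, Prdx3 at 96.14 against 88.34, Dync1h1 at 44.8 against 34.5 and Rps7 at 67.56 against 57.24. For Mrpl42 this was so in both groups.

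The effect of the knockout differed between ages by limma's test of the difference (adjusted p under 0.05) for 42 of the 149 genes, given here as the effect at 24 months minus that at 3 months on the log2 scale. Respiratory chain genes with a lower effect at 24 months were Ndufc2 at -0.63, Ndufb11 at -0.64, Ndufb5 at -0.60, Atp5l at -0.99, Atp5c1 at -0.42, Cycs at -0.93, Cox6b1 at -1.47 and mt-Nd6 at -0.76. Other mitochondrial genes with a lower effect were Mrpl20 at -0.52 and Timm17a at -0.36. Contractile and cytoskeletal genes with a higher effect were Myh4 at 0.55, Myh2 at 1.1, Myh8 at 0.40, Myh3 at 0.80, Ryr1 at 0.57, Igfn1 at 1.64, Myom2 at 0.50, Flnc at 0.76, Dync1h1 at 0.97 and Cyfip2 at 1.164. Other muscle and regulatory genes with a higher effect were Mef2d at 1.004, Chrna1 at 0.77, Slc6a8 at 0.54, Lrtm1 at 1.18, Plin3 at 1.27, Per1 at 1.36, Kmt2d at 1.22 and Asb15 at 1.31. Markers of other cells with a lower effect were Tyrobp at -0.72, C1qa at -0.78, Cd248 at -0.42, Kera at -1.04, Tnmd at -1.05, Hbb-bt at -0.92 and Cfd at -1.99. The remaining genes with a lower effect were Cyp2e1 at -1.88, Slc30a2 at -0.76, Ifi27l2a at -1.29, Selenom at -1.29, Dynlt1b at -1.28, Rpl35 at -0.90 and Rps7 at -0.80. Without the 3-month library MKO_3251, which lay with WT, limma's test no longer called Ndufb5 (adjusted p = 0.0702), Atp5c1 (0.0795), Timm17a (0.0535), Chrna1 (0.0507), Hbb-bt (0.0546), Cycs (0.0527) and Per1 (0.0596), and it called Pla2g5 (-0.98), Got1 (0.49) and Fbxo32 (0.54) in addition. The rRNA share of the libraries also differed between the ages. Over all tested genes, 120 of the 307 genes with a higher effect at 24 months and 55 of the 234 with a lower effect were still called with the rRNA share as a covariate in limma, and 11 and 4 in the libraries of overlapping rRNA share.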

How the results depend on the processing

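No paired analysis was possible because the columns of the table carry no replicate number of the labels. Genes called higher in mKO at 24 months (1292) numbered 839 among genes of mean 5 TPM or more, 355 in the libraries of overlapping rRNA share, 6359 on unscaled TPM and 193 with a fold of at least 1.5. Genes called lower (1517) numbered 1002 with the rRNA share as a covariate, 362 in the libraries of overlapping rRNA share, 343 on unscaled TPM and 361 with a fold of at least 1.5. For a higher effect at 24 than at 3 months (307 genes) the counts were 606 with array weights, 179 with no filter, 470 with quantile normalization, 124 with the rRNA covariate, 12 with overlapping rRNA shares, 2996 unscaled and 102 with the fold minimum, and for a lower effect (234 genes) 577, 132, 377, 56, 4, 108 and 133 in the same order. Leaving out 1 of the 12 libraries gave 1092 to 1236 higher, 1325 to 1451 lower, 222 to 334 with a higher and 145 to 273 with a lower effect at 24 months, the last being 145 without MKO_SO_85, 147 without WSO_15 and 153 without MKO_SO_68. The share of TPM in mitochondrial DNA protein genes was called as log2 of summed scaled TPM (-0.517) and as a share without rRNA (-4.20 points), and ranged from -2.52 to -1.50 points with 1 library left out, called without WSO_14 (exact permutation test, adjusted p = 0.0498) and without WSO_28 (0.0455). The share of TPM in nuclear rRNA genes (log2) ranged from -1.40 to -0.897 and was not called without WSO_13, WSO_14, WSO_15, WSO_28, WSO_29, MKO_SO_85, MKO_SO_87 or MKO_SO_70. On unscaled TPM 11 of the 149 printed genes changed sign: Tfam to 0.34, Ndufa10 to 0.042, Sdha to 0.14, Sdhc to 0.075, Atp5a1 to 0.15 (0.076 with quantile normalization), Taco1 to 0.11, Aars2 to 0.11, Crat to 0.083, Prdx3 to 0.0011, Hspd1 to 0.21 and Dynlt1b to 0.13. The Tfam change was also above 0 with array weights (0.026), quantile normalization (0.0016) and the length trend removed (0.0026), and ranged from -0.074 to 0.045 with 1 library left out. The Ppargc1b change ranged from -0.0058 (without WSO_13) to 0.12. Of the 141 printed genes that were called, 28 lost the call on unscaled TPM without a change of sign. In the same way it was lost by 16 with the rRNA covariate, 58 with overlapping rRNA shares (where 6 libraries remain), 8 with quantile normalization, 7 with no filter, 3 with the length trend removed and 9 with 1 library left out. Genes that changed sign are not in these counts. On unscaled TPM Sdha, Sdhc, Taco1, Aars2, Crat and Prdx3 changed sign and were not called either, and Hspd1 was called higher instead of lower. The causes were not tested. TPM keep no read depth, so the precision of single low values is unknown.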

Other observations

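Cytosolic ribosomal protein genes, which encode the translation machinery outside mitochondria, gave 24 falls and 0 rises among 81 tested genes on scaled TPM (median -0.31). On unscaled TPM 6 were called higher and 1 lower (median 0.07), where 51.3% of all tested genes were called higher. Falls numbered 10 with the rRNA share as a covariate (median -0.28) and 1 in the libraries of overlapping rRNA share (median -0.30). Rpl35, of the large subunit, had 177 to 209 (median 196) scaled TPM in WT and 85.6 to 137 (median 97) in mKO and fell by 0.92 ± 0.16 (limma, adjusted p = 7.24e-05). Rps7, of the small subunit, had 77.7 to 94.5 (median 82.7) in WT and 52 to 67.6 (median 56.4) in mKO and fell by 0.55 ± 0.11 (limma, adjusted p = 0.000491). The groups did not overlap for either gene. Ribosomal protein genes have many processed copies in the genome that can share reads, so single values are uncertain.

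Of 18 genes of the circadian clock 3 rose and 0 fell, where 10.4% of all tested genes rose. The median of the list was 0.05, and 7 of the 18 changes were below 0. In the libraries of overlapping rRNA share 1 rose. Besides Per1, the genes that rose with all libraries included Cry2, a repressor of the clock. It had 8.0 to 10.1 (median 9.21) scaled TPM in WT and 12.5 to 14 (median 13.2) in mKO and rose by 0.49 ± 0.08 (limma, adjusted p = 4.01e-05). Cry2 did not overlap between the groups. The labels give no time of day of tissue collection.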
